A study of Mus musculus with 3 samples.

Results

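Histone lysine methyltransferases and demethylases were described as a group of 45 genes in ALSCs, pluripotent cells derived from epiblasts of mouse gastrulae at embryonic day 6.5 and kept in Activin A and LIF. The members are the protein-coding genes whose names start with Kdm, Kmt2, Kmt5, Setd, Nsd, Suv39h, Ehmt or Smyd followed by their number or letter, without the Y chromosome. They are 45 of 21926 named protein-coding genes and 55421 named genes in all, and comprise 28 genes named for methyltransferase families and 17 named for demethylase families. The rule used names only and no measured value. It left out *Kdm5d* on the Y chromosome, which had a count of 0 in every library, the noncoding *Kdm6bos*, and the pseudogene *Kdm4dl*.

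All 3 libraries (replicates 1, 2 and 3) belong to 1 condition. The cells came from ICR females mated with GOF/GFP males, which carry an Oct4-GFP reporter, and polyA RNA was sequenced. The study calls its RNA-seq samples biological replicates, but whether each library came from a separate line or from cultures of 1 line is not stated, so the spread below is that between these libraries. No control group was analysed here, and no difference from another cell type was tested.

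The libraries held 18037342 to 18724038 counts on named genes. The defining pluripotency markers were present, with *Pou5f1* at 648 ± 25.3 and *Sox2* at 119 ± 5.21 FPKM (SD, n = 3), and 4 of 4 primed markers reached 1 FPKM in every library against 0 of 4 naive markers. The primed markers differed widely, with *Fgf5* at 3.89, *Otx2* at 5.08, *Pou3f1* at 22.6 and *Dnmt3b* at 281 FPKM on average. Although the labels call the cells embryonic stem cells, the naive markers *Zfp42* and *Tbx3* had at most 3 counts in any library. The other naive markers had more, with 16 to 22 counts for *Klf4* and 63 to 107 for *Esrrb*. The study also names *Klf2* and *Nr5a2* as naive markers, raised in ALSCs over EpiSCs, and these were not among the 4 listed here. The neural marker *Sox1* was at 8.18 FPKM and the endoderm marker *Foxa2* at 1.96 FPKM. In every library, 1 FPKM was reached by 1 of 2 neural, 1 of 3 endoderm, 0 of 3 mesoderm and 0 of 3 trophoblast markers. Of 8 fibroblast markers, *Dcn* and *Lum* were at 0 and *Col3a1* and *Postn* at 3 counts or fewer, and the summed level of the 8 was 12.6 to 14.2 FPKM, mostly from *Thy1* and *Col1a1*. Replicate 1 stood apart from replicates 2 and 3. The common biological coefficient of variation, edgeR's estimate of the spread between libraries beyond counting error, was 0.153 with all 3 libraries and 0.0531 without replicate 1. The number of varying genes is given with and without replicate 1, while mean levels include it.

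Lysines in the tails of histones H3 and H4 carry up to 3 methyl groups, and the position of the lysine decides how the mark is read. Methylation of H3K4 marks promoters and enhancers, that of H3K36 marks transcribed gene bodies and intergenic chromatin, and that of H3K9 and H4K20 marks heterochromatin, while H3K27 methylation is the Polycomb mark. Most methyltransferases of these marks share a SET domain and use S-adenosylmethionine. The demethylases are either flavin-dependent amine oxidases (KDM1) or iron-dependent JmjC enzymes that use 2-oxoglutarate, and several enzymes of both kinds are known to take part in the exit from, or the return to, naive pluripotency.

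To compare genes of different length, levels are given as FPKM, in which the count is divided by the gene's length and by the library's total. Of the 45 members, 42 (93.3%) reached 1 FPKM or more in every library, against 45.7% of all protein-coding genes. They comprised 26 of 28 methyltransferases and 16 of 17 demethylases. The median level of these 42 was 8.76 FPKM, close to the median of 8.21 FPKM of all 11125 named genes that met the same limit. The demethylases had a median of 12.2 FPKM over all 17, and the methyltransferases one of 7.49 FPKM over all 28. In bulk RNA, a gene that is low in all cells and one that is expressed in few cells cannot be told apart.

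**Figure D1:**
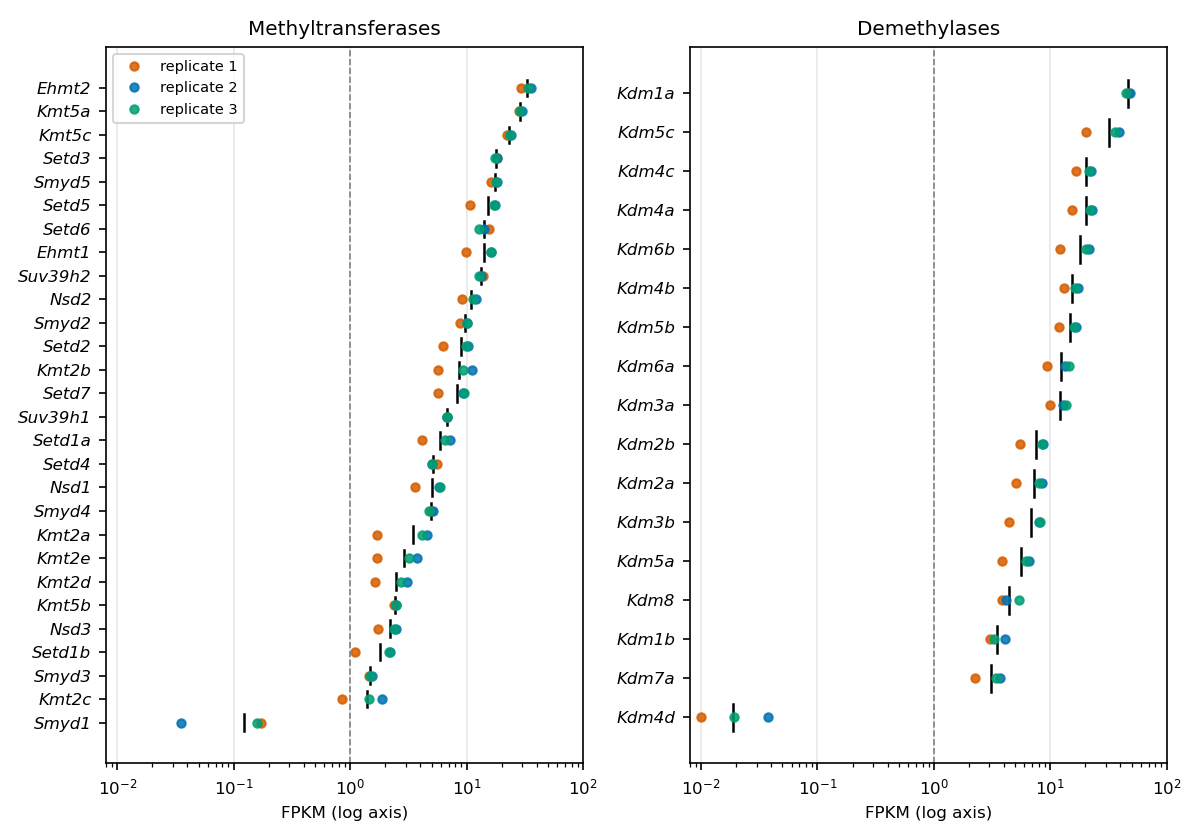
FPKM of each member (log axis) in the 3 ALSC libraries. Points are single libraries, the black bar is the mean of 3, the dashed line marks 1 FPKM, and *Kdm4d* in replicate 1, at 0, is drawn at the left edge. Only *Kmt2c*, *Smyd1* and *Kdm4d* had a library below 1 FPKM, and replicate 1 (orange) lay left of the other libraries for most members.

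As the plot of levels shows, *Kdm1a* (ENSMUSG00000036940, GRCm38 chromosome 4, 136550540 to 136602723), which encodes the H3K4 demethylase LSD1, was the highest member. Its level was 46.5, 48.0 and 44.8 FPKM in replicates 1, 2 and 3, and its mean of 46.4 FPKM exceeded the mean of 88.4% of all expressed genes. All its values lay above those of every other member. The next 3 members by mean were *Ehmt2*, *Kdm5c* and *Kmt5a*. This order depended on the gene length, since with the longest transcript *Kdm1a* was again first, but *Kmt5a*, *Ehmt2* and *Setd5* came next and *Kdm5c* was at rank 7. On the deposited length, neighbours below *Kdm1a* mostly could not be ordered, because in 40 of the 44 adjacent pairs the ranges of the 3 libraries overlapped. The exceptions were the steps from *Kdm1a* to *Ehmt2*, from *Kmt5a* to *Kmt5c*, from *Kmt5c* to *Kdm4c* and from *Kmt2c* to *Smyd1*. In all, 19 members had a mean of 10 FPKM or more and 31 one of 5 FPKM or more.

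The KMT2 genes encode the MLL proteins, which carry the catalytic SET domain of COMPASS-like complexes that methylate H3K4, and 4 of these 5 genes had means below 5 FPKM. *Kmt2b* (ENSMUSG00000006307, chromosome 7, 30568858 to 30588726), which encodes MLL2 and acts at CpG-rich promoters, was the highest of the 5, at 5.65, 11.1 and 9.22 FPKM in replicates 1, 2 and 3. *Kmt2a* (MLL1) was at 1.71, 4.59 and 4.17 FPKM, and *Kmt2d* (MLL4), an enzyme of enhancer monomethylation, had a mean of 2.47 ± 0.753 FPKM (SD, n = 3). The other enhancer enzyme, *Kmt2c* (MLL3, chromosome 5, 25271798 to 25498783), was the lowest at 0.858, 1.88 and 1.45 FPKM, and only replicate 1 kept it below 1 FPKM. *Kmt2e*, whose product has no known histone methyltransferase activity, was at 1.68, 3.76 and 3.23 FPKM, and its exons overlap 972 bases of *Srpk2* on the opposite strand, which had 741 to 891 counts. Replicate 1 was the lowest library for all 5 genes.

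The SETD1 genes encode the catalytic subunits of the SET1 complexes, which place most H3K4 trimethylation. *Setd1a* was at 4.16, 7.17 and 6.48 FPKM in replicates 1, 2 and 3, and *Setd1b* at 1.09, 2.20 and 2.14 FPKM. The level of *Setd1a* was above that of *Setd1b* in every library. *Setd7*, an H3K4 monomethyltransferase that also acts on other proteins, had a mean of 8.19 ± 2.15 FPKM (SD, n = 3).

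Of the 5 H3K4 demethylases, 3 (*Kdm1a*, *Kdm5c* and *Kdm5b*) had means above that of every H3K4 methyltransferase. *Kdm5c* (ENSMUSG00000025332, chromosome X, 152233020 to 152274535), an eraser of H3K4 di- and trimethylation that is known to escape X inactivation, was at 20.1, 39.1 and 36.2 FPKM, with replicate 1 well below the others. *Kdm5b* had a mean of 14.8 ± 2.59 FPKM (SD, n = 3). *Kdm5a*, which encodes the founding member of the family, was the lowest of the 3 at 3.88, 6.62 and 6.23 FPKM. On the deposited length, the ranges of the 3 KDM5 genes did not overlap. *Kdm1b*, which encodes LSD2, was at 3.04, 4.06 and 3.31 FPKM, and the mean of its paralog *Kdm1a* was 13.4-fold higher, the widest gap between the top members of any family here. *Kdm1b* shares 505 exonic bases with *Dek* on the opposite strand, which had 5892 to 6677 counts, and the use of strand is not stated, so part of the *Kdm1b* count may belong to *Dek*.

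For H3K9, both pairs of methyltransferases were present. *Ehmt2* (ENSMUSG00000013787, chromosome 17, 34898469 to 34914052), which encodes G9a, had the highest mean of all methyltransferases on the deposited length, at 29.5, 35.5 and 33.8 FPKM in replicates 1, 2 and 3, a range that overlapped that of *Kmt5a*. With the longest transcript the order turned, with *Kmt5a* at 56.1 and *Ehmt2* at 44.9 FPKM. *Ehmt1*, which encodes its partner GLP, was at 9.83, 16.1 and 16.1 FPKM. G9a and GLP work as a heterodimer, and the level of *Ehmt2* was above that of *Ehmt1* in every library. The SUV39H enzymes trimethylate H3K9 in constitutive heterochromatin. *Suv39h2* was at 14.0, 13.2 and 12.9 FPKM and the X-linked *Suv39h1* at 6.78, 6.83 and 6.79 FPKM. *Suv39h1* had the lowest coefficient of variation of FPKM among all members, at 0.424%. This rank depended on the scaling. With the library sizes of edgeR's TMM, the chi-square against counting error was 0.847 for *Suv39h1* and 0.0830 for *Kmt5b*, which had similar counts.

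The H3K9 demethylases of the KDM3 and KDM4 families were expressed as well, with the exception of *Kdm4d*. *Kdm4c* and *Kdm4a*, erasers of H3K9 and H3K36 trimethylation, had means of 20.1 and 20.1 FPKM and could not be ordered, since *Kdm4c* was at 16.8, 22.3 and 21.4 FPKM and *Kdm4a* at 15.4, 22.8 and 21.96 FPKM. *Kdm4b* followed at 15.5 ± 2.22 FPKM (SD, n = 3). *Kdm3a*, an H3K9 mono- and didemethylase, was at 9.93, 12.9 and 13.7 FPKM, above *Kdm3b* at 4.41, 8.04 and 8.20 FPKM in every library. *Kdm7a*, which removes dimethylation of H3K9 and H3K27, was at 2.27, 3.71 and 3.38 FPKM.

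Among H3K36 enzymes, *Nsd2* was the highest of the 3 NSD genes, whose products add dimethylation, at 9.15, 12.02 and 11.3 FPKM, and *Nsd3* the lowest, at 1.74, 2.46 and 2.37 FPKM. *Nsd1* lay between them at 5.08 ± 1.30 FPKM (SD, n = 3), and the ranges of the 3 genes did not overlap. *Setd2*, which encodes the enzyme for H3K36 trimethylation on transcribed genes, had a mean of 8.87 ± 2.22 FPKM (SD, n = 3). The H3K36 demethylases with a CXXC zinc finger that binds CpG islands were close to each other, with *Kdm2b* at 5.48, 8.69 and 8.56 FPKM and *Kdm2a* at 5.04, 8.50 and 8.01 FPKM. The count of *Kdm2b* is uncertain, as its exons overlap 627 bases of *Rnf34*, a gene on the opposite strand with 918 to 981 counts.

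The 3 H4K20 methyltransferases each had nearly the same level in all libraries. *Kmt5a* (ENSMUSG00000049327, chromosome 5, 124439930 to 124462308), which encodes the H4K20 monomethyltransferase SETD8 needed for cell division, was at 28.0, 29.8 and 29.0 FPKM in replicates 1, 2 and 3. *Kmt5c*, which encodes SUV420H2, was at 22.3, 24.0 and 23.5 FPKM, and *Kmt5b* (SUV420H1) at 2.36, 2.48 and 2.48 FPKM. *Kmt5b* and *Kmt5c* add further methyl groups to the same residue. The deposited length of *Kmt5b* is 14752 bases against 6130 for its longest transcript, with which its mean was 5.88 FPKM, still below the 33.6 FPKM of *Kmt5c* on that scale.

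Both H3K27 demethylases were present. *Kdm6b* (JMJD3) was at 12.1, 21.6 and 20.2 FPKM and *Kdm6a* (UTX, chromosome X, 18162575 to 18279936) at 9.40, 13.4 and 14.5 FPKM. *Kdm6a* is, like *Kdm5c*, a known escapee of X inactivation. The noncoding *Kdm6bos*, which overlaps *Kdm6b* on the other strand, had 7, 2 and 2 counts, too few to matter for the level of *Kdm6b*.

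Most of the remaining members act on other proteins or have an uncertain substrate, while H3K36 and H3K4 are among the reported substrates of SMYD2 and SMYD3. *Setd3*, the actin histidine methyltransferase, was the highest of the remaining SETD genes at 18.4, 18.2 and 17.4 FPKM, and *Setd4* the lowest at 5.55, 5.01 and 5.02 FPKM. *Setd5* had a mean of 15.1 ± 3.94 and *Setd6*, whose product methylates the NF-κB subunit RELA, one of 14.1 ± 1.35 FPKM (SD, n = 3 for both). Of the SET and MYND domain genes, *Smyd5* was the highest, at 16.1, 18.4 and 18.0 FPKM, followed by *Smyd2* at 9.69, *Smyd4* at 4.94 and *Smyd3* at 1.48 FPKM on average. *Kdm8*, whose product (JMJD5) carries a JmjC domain, was at 3.86, 4.16 and 5.36 FPKM, with replicate 3 above the others. Several counts are uncertain because transcripts share sequence. The share of 50-base words found in no other gene was 62.4% for *Setd3* (shared with *Gm14026*), 68.2% for *Smyd2* (*Gm37422*), 79.5% for *Suv39h1* (*Gm14820*) and 46.0% for *Setd1a*. *Setd1a* shares 3523 exonic bases with *Gm49388*, which is listed at 0 in every library. How reads shared between genes were counted is not stated.

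Near or under the detection limit were *Smyd1* and *Kdm4d*. *Smyd1*, which is known for its role in heart and skeletal muscle, had 14, 3 and 13 counts, or 0.170, 0.0352 and 0.159 FPKM, where 3 counts would be 0.0366 FPKM. *Kdm4d*, known for its expression in testis, had 0, 2 and 1 counts, and 3 counts on a gene of its length would be 0.0581 FPKM. With no library above that limit, it was not detectable at this depth. These limits account for counting error alone, since no molecular identifiers tell molecules from PCR copies. For these genes and for the highest member, the 250 bases before the RefSeq start site (GRCm38.p6) are shown, 5′ to 3′ along the gene's strand, in lower case with each CpG dinucleotide in capitals, since CpG density is what separates promoter classes in mouse. They are chr4:136602724-136602973 on the minus strand for *Kdm1a*, chr6:71262282-71262531 on the minus strand for *Smyd1*, and chr9:14500483-14500732 on the minus strand for *Kdm4d*.
Kdm1a: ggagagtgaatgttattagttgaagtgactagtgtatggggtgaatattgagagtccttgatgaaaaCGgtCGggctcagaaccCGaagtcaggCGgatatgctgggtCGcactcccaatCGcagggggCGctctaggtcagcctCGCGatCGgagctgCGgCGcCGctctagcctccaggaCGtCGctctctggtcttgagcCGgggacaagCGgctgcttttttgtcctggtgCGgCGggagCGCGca
Smyd1: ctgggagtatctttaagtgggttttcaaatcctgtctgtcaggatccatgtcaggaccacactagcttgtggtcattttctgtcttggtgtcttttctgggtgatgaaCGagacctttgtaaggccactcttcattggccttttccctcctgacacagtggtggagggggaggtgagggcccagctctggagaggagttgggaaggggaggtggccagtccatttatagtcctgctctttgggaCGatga
Kdm4d: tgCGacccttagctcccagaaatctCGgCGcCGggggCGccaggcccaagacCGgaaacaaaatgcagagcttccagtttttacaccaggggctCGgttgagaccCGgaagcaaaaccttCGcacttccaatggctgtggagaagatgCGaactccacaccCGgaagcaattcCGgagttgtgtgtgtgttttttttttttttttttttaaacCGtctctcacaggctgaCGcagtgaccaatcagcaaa
The window of *Kdm1a* held 21 CpG, that of *Smyd1* 2 and that of *Kdm4d* 14. The 2 members with the fewest counts thus had different promoter classes, and *Kdm4d* without detectable RNA had a CpG observed to expected ratio of 0.843, near the 0.994 of *Kdm1a* and far above the 0.126 of *Smyd1*.

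Promoter windows of 300 bases (250 before and 50 after the start) were found for 33 of the 45 members, which have 45 windows in all because some genes have several starts. A ratio of observed to expected CpG of 0.6 or more, a common limit for CpG islands, was met by 86.7% of these windows, against 35.8% of the 32851 windows of all genes. The GC box GGGCGG, which overlaps with CpG density since it holds a CpG, was found on either strand in 73.3% of the members' windows and 35.7% of all windows. The CCAAT box (CCAAT) was in 42.2% and 37.4%, the ETS motif CCGGAAGT in 2.22% and 3.89%, the NRF1 motif in 13.3% and 4.60%, and the TATA box TATAAA in 2.22% and 13.6%, both strands being searched. These are matches of letters and not measured binding, and windows of 1 gene share sequence. Of the 10466 windows of genes at 1 FPKM or more in every library, 74.4% met the same CpG limit, so expressed genes rather than all genes are the closer reference for these shares. That reference was computed for the CpG limit only. Whether the motif shares of the members differ from those of expressed genes was not tested.

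Levels were also summed by the residue that the products act on, as a description over genes chosen after their values had been seen. For H3K4, the 7 methyltransferases (*Kmt2a* to *Kmt2d*, *Setd1a*, *Setd1b* and *Setd7*) summed to 20.8, 39.3 and 35.7 FPKM in replicates 1, 2 and 3, and the 5 demethylases (KDM1 and KDM5) to 85.3, 114 and 106 FPKM. The sum of the demethylases was 3.33 ± 0.667 times that of the methyltransferases (SD, n = 3). For H3K36 (*Setd2* and NSD genes against KDM2 and *Kdm4a* to *Kdm4c*) this ratio was 2.62 ± 0.0522, and for H3K9 (SUV39H and EHMT genes against KDM3, KDM4 and *Kdm7a*) it was 1.15 ± 0.109 (SD, n = 3 for both). With the longest transcript in place of the deposited length, the ratios were 4.01, 2.15 and 1.22 for H3K4, H3K36 and H3K9. With these genes, the direction was the same in every library on the deposited length and on average with the longest transcript. For H3K9 in replicate 1 the sums were close, at 61.8 FPKM for demethylases and 60.1 FPKM for methyltransferases. A sum of transcript levels is no measure of enzyme activity, *Kdm4a* to *Kdm4c* count for both H3K9 and H3K36, and enzymes with other names are not in these sums. Among them is the H3K9 methyltransferase gene *Setdb1*, at 9.04, 12.4 and 11.8 FPKM in replicates 1, 2 and 3. In replicate 1 the level of *Setdb1* was larger than the gap between the H3K9 sums. With it added, the methyltransferases would have the larger sum in that library. In replicates 2 and 3 its level was smaller than the gap. The H3K9 ratio with *Setdb1* added was not computed, and the direction is the same in every library for the listed genes only. The SMYD genes were left out too. With *Smyd2* added to the H3K36 methyltransferases their sum was 36.6 in place of 26.96 FPKM and the ratio 1.92 ± 0.0365, and with *Smyd3* added to those of H3K4 the ratio was 3.17 ± 0.578 (SD, n = 3 for both).

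**Figure D2:**
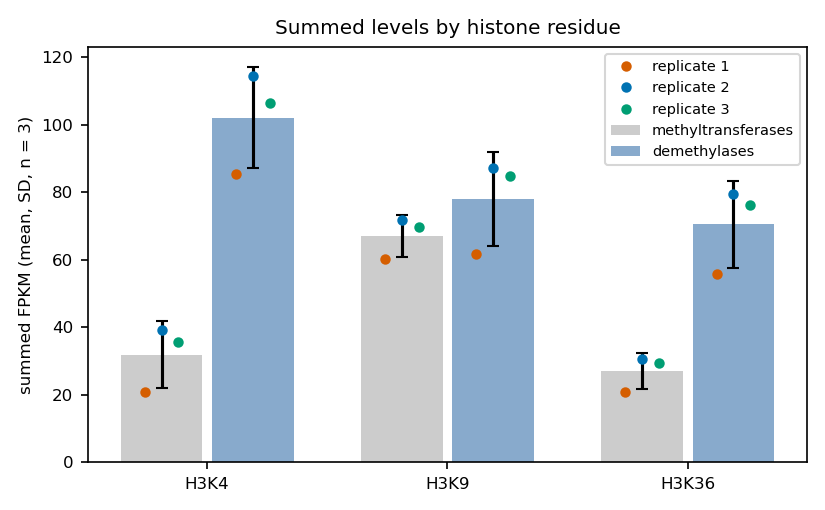
Summed FPKM of the members listed in the text for H3K4, H3K9 and H3K36, without SMYD genes (bars, mean and SD of 3 ALSC libraries; points, single libraries). For H3K4 the demethylases summed to 102 FPKM and the methyltransferases to 31.9 FPKM on average, and replicate 1 was the lowest library in all 6 sums.

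To see how far 1 member dominates each family, the highest and the next member were compared within each library as a log2 ratio of FPKM. A sign test over 3 libraries could not give a two-sided p below 0.25, so none is given. The pairs were chosen by their means. On the deposited length, the highest member lay above the next in every library in 13 of the 14 families with 2 or more members. The 6 SETD genes outside SETD1 were counted as 1 of these families by their names, although their products differ in substrate. The ratio was 3.75 ± 0.19 for *Kdm1a* over *Kdm1b*, 1.74 ± 0.17 for *Setd1a* over *Setd1b*, 1.38 ± 0.30 for *Kmt2b* over *Kmt2a*, and 1.27 ± 0.28 for *Ehmt2* over *Ehmt1* (SD, n = 3 for each). The exception was *Kdm4c* over *Kdm4a*, at 0.016 ± 0.092. The gene length decided several of these ratios, since the deposited length covers all annotated exons and was 1.36-fold the longest transcript in the median member and up to 2.72-fold in *Setd5*. With the longest transcript, the log2 ratio of *Kdm5c* over *Kdm5b* was 0.28 in place of 1.06, that of *Suv39h2* over *Suv39h1* 0.24 in place of 0.97, and that of *Setd3* over *Setd5* -0.18 in place of 0.28. Among the 14 mean ratios this last was the 1 whose sign turned with the length used. Ratios in single libraries are given on the deposited length only.

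**Figure D3:**
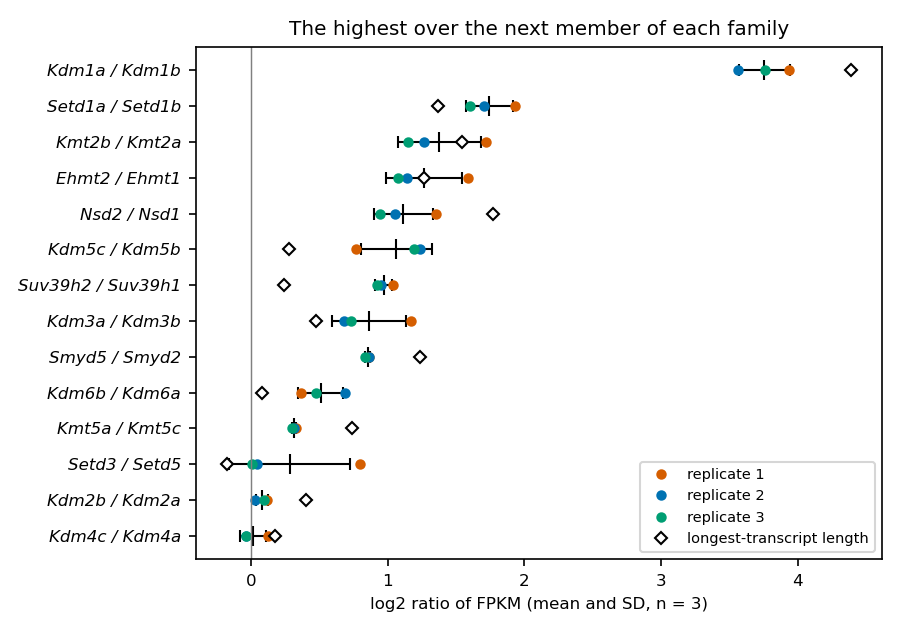
Log2 ratio of the FPKM of the highest over the next member of each family, in single libraries (coloured points) and as mean and SD of 3 (black bars). Open diamonds give the mean ratio with the length of the longest transcript, which moves *Kdm5c* / *Kdm5b* from 1.06 to 0.28 and leaves *Kdm1a* / *Kdm1b* above 3.

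The counts of most members differed between the libraries by more than counting error, and most of these differences lay between replicate 1 and the others. Of the 44 members with at least 10 counts, 36 (81.8%) varied (chi-square test, adjusted p below 0.05), against 47.2% of all 16944 genes tested and 64.7% of those with 100 or more counts on average. In 30 members (68.2%) the count varied and was lowest in replicate 1, against 22.1% of all genes tested and 30.8% of those with 100 or more counts on average. In 6 it varied and was highest in replicate 1 after TMM scaling (*Kdm1a*, *Setd3*, *Setd4*, *Setd6*, *Smyd1* and *Suv39h2*), against 22.2% of all genes. The test sets libraries against counting error only, and it does not say whether the libraries differ more than separate cultures usually do.

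Among members with a mean of 1 FPKM or more, the largest differences per count were those of *Kmt2a*, *Kmt2e*, *Kmt2c*, *Setd1b* and *Kdm5c*. *Smyd1*, below that level, had a larger value on few counts (14, 3 and 13). *Kmt2a* had 516, 1433 and 1253 counts in replicates 1, 2 and 3 (adjusted p = 3.90e-80, chi-square test), and its log2 ratio of replicate 1 to the mean of the others was -1.27, the lowest of all members. *Kmt2e* had 318, 736 and 608 counts (adjusted p = 2.55e-28) and *Kmt2c* 315, 715 and 530 (adjusted p = 9.78e-26). For *Setd1b* the counts were 238, 498 and 465 (adjusted p = 2.59e-17), and for *Kdm5c* 2583, 5209 and 4648 (adjusted p = 8.61e-156). In each of these genes replicates 2 and 3 lay closer to each other than to replicate 1, which was lower by 0.84 to 1.27 on the log2 scale.

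Without replicate 1, only 4 of 44 members (9.09%) varied between replicates 2 and 3, against 8.11% of all genes tested, and 13 had an unadjusted p below 0.05. These were *Kmt2b* with 1989 and 1596 counts (adjusted p = 3.64e-05, chi-square test), *Kmt2c* with 715 and 530 (adjusted p = 0.000680), *Kdm6a* with 2101 and 2191 (adjusted p = 0.0298) and *Kdm5c* with 5209 and 4648 (adjusted p = 0.0337). Both KMT2 genes and *Kdm5c* were lower in replicate 3 after TMM scaling, and *Kdm6a* was higher. The differences between these libraries were small, at -0.24 for *Kmt2b*, -0.35 for *Kmt2c*, 0.14 for *Kdm6a* and -0.088 for *Kdm5c* as log2 of replicate 3 over replicate 2.

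By contrast, 8 members did not vary by more than counting error. They were all 3 H4K20 methyltransferases (adjusted p = 0.918 for *Kmt5a*, 0.970 for *Kmt5b* and 0.909 for *Kmt5c*, chi-square test), *Suv39h1* (0.731), and 4 of 5 SMYD genes (0.395 for *Smyd2*, 0.954 for *Smyd3*, 0.616 for *Smyd4* and 0.0593 for *Smyd5*). The fifth, *Smyd1*, varied on 14, 3 and 13 counts (adjusted p = 0.0349). All 5 KMT2 and both SETD1 genes varied, as did all NSD, KDM1, KDM2, KDM3, KDM5 and KDM6 genes. That these families differ from each other in how much they vary was not tested.

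Over the 43 members with 100 or more counts on average, the log2 ratio of replicate 1 to the mean of replicates 2 and 3 had a median of -0.40, against 0.0059 over all 10577 genes with such counts. It was below 0 in 35 members. At least 1.5-fold lower in replicate 1 were 17 of the 43 members (39.5%), against 7.25% of all genes. Between replicates 3 and 2 the same median was -0.037. The demethylases had a median of -0.48 (16 genes) and the methyltransferases one of -0.28 (27 genes).

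Gene length moved with this ratio. The members are long, with a median of 8116 bases against 4392 for protein-coding genes at 1 FPKM or more, and range from 1903 bases (*Setd6*) to 20291 (*Kmt2c*). Across all 10577 genes the ratio fell with length, with a Pearson r of -0.594 with log2 length, and across the 43 members r was -0.657 and Spearman's rho -0.672. The genes share their libraries and are no replicates, so these are descriptions. In members shorter than 6000 bases the median ratio was -0.066 (16 members, 0.11 in all genes of that length), in those of 6000 to 12000 bases -0.62 (14 members, -0.23 in all genes), and in those of 12000 bases or more -0.65 (13 members, -0.49 in all genes). With the trend on length removed, the median of the members was -0.13, and with the trends on length and GC content removed it was -0.18 and below 0 in 27 members, the median of all genes being 0 in both cases. The part of length in the lower counts of single members was not tested.

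Members of like deposited length differed widely, as the plot against length shows. At 14752 bases, *Kmt5b* had a ratio of -0.0038, while *Kmt2a* at 16670 bases was at -1.27 and *Kdm5b* at 16555 bases at -0.39. Their longest transcripts were not alike, at 6130 bases for *Kmt5b*, 8714 for *Kdm5b* and 16470 for *Kmt2a*, and the ratio fell in that order. Other members did not keep to it. *Setd5*, with a longest transcript of 6755 bases, was at -0.65, and *Kmt2d*, with one of 19823 bases, at -0.75. Whether the longest transcript accounts for these differences was not tested. The length trend removed in the following values is that on the deposited length. With both trends removed, *Kmt5b* was at 0.51, *Kdm5b* at 0.12, *Kmt2a* at -0.73, *Kmt2e* at -0.65, *Kdm5c* at -0.60, *Setd1b* at -0.52 and *Kmt2c* at -0.35 in place of -0.86. *Kmt2a* and *Kmt2e* thus stayed the lowest members on that scale. The H4K20 enzymes *Kmt5a* and *Kmt5c*, at 0.072 and 0.020, stayed near 0.

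**Figure D4:**
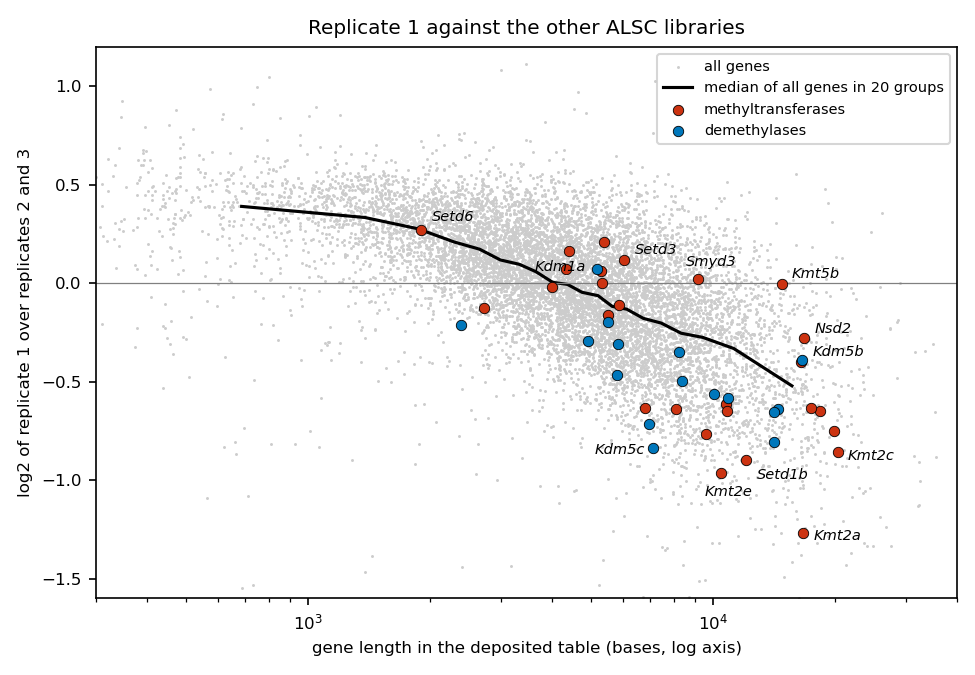
Log2 ratio of replicate 1 to the mean of replicates 2 and 3 (TMM scaling, pseudocount 0.5 CPM) against the deposited gene length (log axis), for 43 members (coloured) and all 10577 genes with 100 or more counts on average (grey; 52 lie outside the axes). The black line, the median of all genes in 20 groups by length, runs from 0.39 to -0.52; most members lie below it, with *Kmt2a* at -1.27, while *Kmt5b* and *Smyd3* lie above.

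Genes of the same pathways that the name rule leaves out were taken from lists drawn up with earlier results of these data known. The counts of varying genes in these lists stand against 47.2% of all genes tested, or 64.7% of those with 100 or more counts on average, against 22.1% and 30.8% that varied and were lowest in replicate 1, and against 8.11% that varied without replicate 1. Of 13 histone lysine methyltransferases and demethylases with other names, 11 reached 1 FPKM in every library. The highest was *Ezh2*, the H3K27 methyltransferase of Polycomb, at 32.1 ± 1.05 FPKM, and the lowest *Hr*, at 0.398 ± 0.151 FPKM (SD, n = 3 for both). The level of *Ezh2* was above those of both H3K27 demethylases in every library. In this list 11 of 13 genes varied and 10 of them were lowest in replicate 1, with a median log2 ratio of -0.70. *Ezh2* was the exception and was highest in replicate 1. Without replicate 1, 1 of the 13 varied.

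Genes for the shared subunits of COMPASS complexes, which the KMT2A to KMT2D and SETD1 enzymes need, had higher FPKM than the genes for the enzymes. Protein levels were not measured. All 4 reached 1 FPKM, from *Dpy30* at 90.9 ± 17.6 FPKM to *Rbbp5* at 15.3 ± 2.23 FPKM (SD, n = 3). Even *Rbbp5* lay above every KMT2 and SETD1 gene in each library. In this list 2 of 4 genes varied, *Rbbp5* being lowest and *Dpy30*, a gene of 1146 bases, highest in replicate 1, and without it 0 of 4 varied by the chi-square test (1 had an unadjusted p below 0.05). Of 10 other COMPASS subunits, 7 reached 1 FPKM, led by *Psip1* at 97.4 FPKM, and 5 of 8 tested varied, 2 without replicate 1. *Men1* and *Pagr1a* are listed at 0 in every library, and whether their reads were lost in counting was not tested.

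Of 7 genes for partners of LSD1 in the CoREST complex, 6 reached 1 FPKM, with *Hdac2* at 71.5 ± 6.16 FPKM the highest and *Rcor3* at 0.167 ± 0.0535 FPKM the lowest (SD, n = 3), and 4 of 7 varied, 1 without replicate 1. For the supply of the cofactors S-adenosylmethionine and 2-oxoglutarate, 8 of 10 genes reached 1 FPKM, led by *Psat1* at 173 FPKM, while *Nnmt* had a count of 0 in every library. In this list 8 of 9 tested genes varied and 3 did without replicate 1, with a median log2 ratio of 0.061 for replicate 1. Replicates 2 and 3 differed most in *Mat2a*, with 1261 and 452 counts against 710 in replicate 1. Its adjusted p without replicate 1 was 6.29e-73 (chi-square test).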

How the data were processed

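The authors deposited 1 table of raw read counts per gene for 3 ALSC libraries, without normalization. Per the labels, libraries were made from polyA RNA with the Illumina TruSeq kit, and the submitters' processing notes name HISAT2 2.0.5. Reads were mapped to GRCm38. The counting program, its use of strand, and its handling of reads with several positions are not given in the sources used here. The deposited gene lengths, in bases, equalled the summed length of all annotated exons (GENCODE M21) for 45 of 45 members. The table has 3 more sample columns, named for AFSCs, that match no sample of this series and were not used. The 317 rows without a gene name held 0.165% to 0.182% of the counts and were left out.

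FPKM was computed from each count, the deposited length and the library's total. A chi-square test asked whether counts differed between libraries by more than counting error, with library sizes from edgeR's TMM, over genes whose 3 counts summed to 10 or more. The p-values were adjusted by Benjamini-Hochberg across every gene tested, with a threshold of 0.05. DESeq2's size factors were an alternative. Ratios between libraries used a pseudocount of 0.5 CPM and only genes with 100 or more counts on average. The chi-square test and the removal of trends were tested on simulated data. The tools were edgeR 4.0.16 and DESeq2 1.42.0 in R 4.3.3, and SciPy 1.17.1, pandas 2.3.3, matplotlib 3.10.9 and NumPy 2.4.6 in Python 3.11.15.

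The members, the lists of related genes and the processing alternatives were chosen with earlier results of these data known. By the rule for named genes, values per library are given for the highest and lowest member of each family, for members with 3 or fewer counts in any library, for the 5 members whose chi-square was largest relative to their counts (mean of 1 FPKM or more), and for members that varied without replicate 1. The groups of genes summed by histone residue were chosen after the values were seen.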

Additional observations from a re-analysis of the deposited data

How the results depend on the processing

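No paired analysis was possible because all 3 libraries belong to 1 group. The median level of the 45 members, 8.19 FPKM, was 12.1 FPKM with the length of each gene's longest transcript and 22.9 on the TPM scale, which is a change of unit. With the longest transcript, 16 members moved by more than 1.5-fold, all upward, because the divisor is shorter. The number of members at 1 FPKM or more in every library was 42 or 43 under the alternatives run at that limit, and with other limits 43 members reached 0.5 FPKM and 36 reached 2 FPKM. Replicate 1 decided the number of varying members, which was 4 without it and 33 and 34 without replicates 2 and 3. With the longest transcript, the log2 ratio of the highest to the next member was 4.39 for KDM1, 0.28 for KDM5, 0.74 for KMT5, 0.18 for KDM4, 0.078 for KDM6, 1.24 for SMYD, 0.24 for SUV39H, 0.48 for KDM3, 1.77 for NSD, 0.40 for KDM2 and 1.36 for SETD1, and it turned to -0.18 for *Setd3* over *Setd5*. A pseudocount of 1 FPKM gave 3.41 for KDM1, 0.79 for SMYD, 0.88 for SUV39H and 1.30 for SETD1. The ratio of *Kdm4c* to *Kdm4a* ranged from -0.037 without replicate 1 to 0.043 without replicate 3. That of *Setd3* to *Setd5* was 0.030 without replicate 1 in place of 0.28. The median log2 ratio of replicate 1 over the members, -0.40, was -0.47 with total counts, -0.13 with the length trend removed, -0.18 with the length and GC trends removed, and -0.14 with a trend on the longest transcript removed, which was added after seeing the data. Without replicate 2 or 3 it was -0.40 or -0.41. The ratio of summed demethylase to methyltransferase levels was 4.01 for H3K4 and 2.15 for H3K36 with the longest transcript, and 1.92 for H3K36 with *Smyd2* added, alternatives added after seeing the data. Without replicate 1 the ratio for H3K4 was 2.95 in place of 3.33. Depth limited only *Smyd1* and *Kdm4d*, the members with 14 or fewer counts in each library.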
